A study of Platynereis dumerilii with 97 samples.

Results

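A set of 37 transcripts of the marine annelid Platynereis dumerilii was near absent in the first day after fertilization, present at the hours when the trochophore larva forms, and still present in larvae of the fourth day. The members were selected on measured values of this time course. A transcript was a member if its pooled level, in CPM (counts scaled to a transcript total of 1000000), was at most 3 CPM at 1-23 h, at least 20 CPM at 25-36 h, and at 73-94 h at least 0.5 times its level at 25-36 h. The library labelled 21 h was left out of the early block, and 1 abundant transcript, PT_v1_tr_02502, was left out of all totals. Of 10908 transcripts in the table, 67 met the first 2 criteria, and 37 of those also met the third. The limit of 200 members was therefore not reached. The other 30 transcripts, at 73-94 h below 0.5 times their level at 25-36 h, are called the transcripts not kept.

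The study measured single whole embryos, all untreated, from several matings of a male with a female kept at 18 °C, one embryo at each labelled hour from 1-95 h and at 97 and 120 h, 97 embryos in all. CEL-Seq was used, which primes polyadenylated RNA at its tail, adds a barcode per sample and amplifies by transcription. Reads therefore come from the 3′ ends and the counts carry no correction for length; the protocol text names no molecular identifiers, so a count is a read and not a molecule. Neighbouring hours were grouped into windows of 5 to 12 embryos, the 24 h embryo stood alone, and the embryos of 95, 97 and 120 h formed a last window of 3. In a window embryos of slightly different age stand in for replicates, so the spread within a window holds both age and embryo.

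The trochophore is the ciliated swimming larva of annelids and molluscs. It moves and turns with a belt of ciliated cells, the prototroch, senses light and chemicals with an apical organ and simple larval eyes, and begins to lay down muscle, gut and nervous system. In Platynereis it is followed by the metatrochophore and the nectochaete, which elongate, form segments with bristles and begin to crawl. The table pairs no identifier with a gene name or sequence, so which of these functions the members serve cannot be read from it, and no role is given to any transcript here.

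The libraries differed in depth and make-up. Transcript totals ran from 3555 to 2577933 counts, with a median of 743666. The lowest belonged to the library labelled 62 h, in which no member had a count; the next lowest total was 247000. Of the transcripts detected in a library, a median of 27.3% had 1 to 5 counts in the 50 embryos numbered 1 to 50, and 6.24% in the 47 embryos numbered 51 to 97, which hold the 24 h library and all ages from 52 h. The labels name no library batch; embryos 1 to 50 and 51 to 97 are called the first and second number group here, a split drawn from this percentage and the embryo numbers. The hours 25-36 h lie wholly in the first group and 73-94 h wholly in the second, and what differs across 52 h by age cannot be told apart from what differs by number group. In whole embryos, fewer cells that hold a transcript and less of it per cell cannot be told apart either.

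Before 24 h the members were close to the counting floor. In the 22 embryos of 1-23 h without the 21 h library, all 37 together had 407 counts, of which 41 fell in the 6 embryos of 1-6 h and 162 in the 5 embryos of 18-23 h. PT_v1_tr_01803 had no count in any of the 22. The step up was abrupt in these libraries. At 23 h, 4 of the 37 members had a count and their levels summed to 55.2 CPM; at 25 h, 29 members had a count and the sum was 820.1 CPM. In counts, the 23 h library held 10 reads of members, where the 25 h level would have given 149 at its total. The 26 h library lay below its neighbours, with 12 members detected and a sum of 205 CPM, whereas at 27 h the values were 34 members and 1089 CPM. These are 1 embryo per hour, and the blocks were chosen for a low early and a high later level, so the step describes the choice and carries no test.

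The library labelled 24 h did not lie between its neighbours. Its members summed to 4806 CPM, 23 of the 37 had a count, and 3 of the 30 transcripts not kept did. Its percentage of detected transcripts with 1 to 5 counts was 6.42%, and its embryo number was 95. In the library labelled 21 h the members summed to 444 CPM, against at most 180.0 CPM in the other embryos of 18-23 h. Neither library was used to choose members, and why they differ was not tested.

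**Figure D1:**
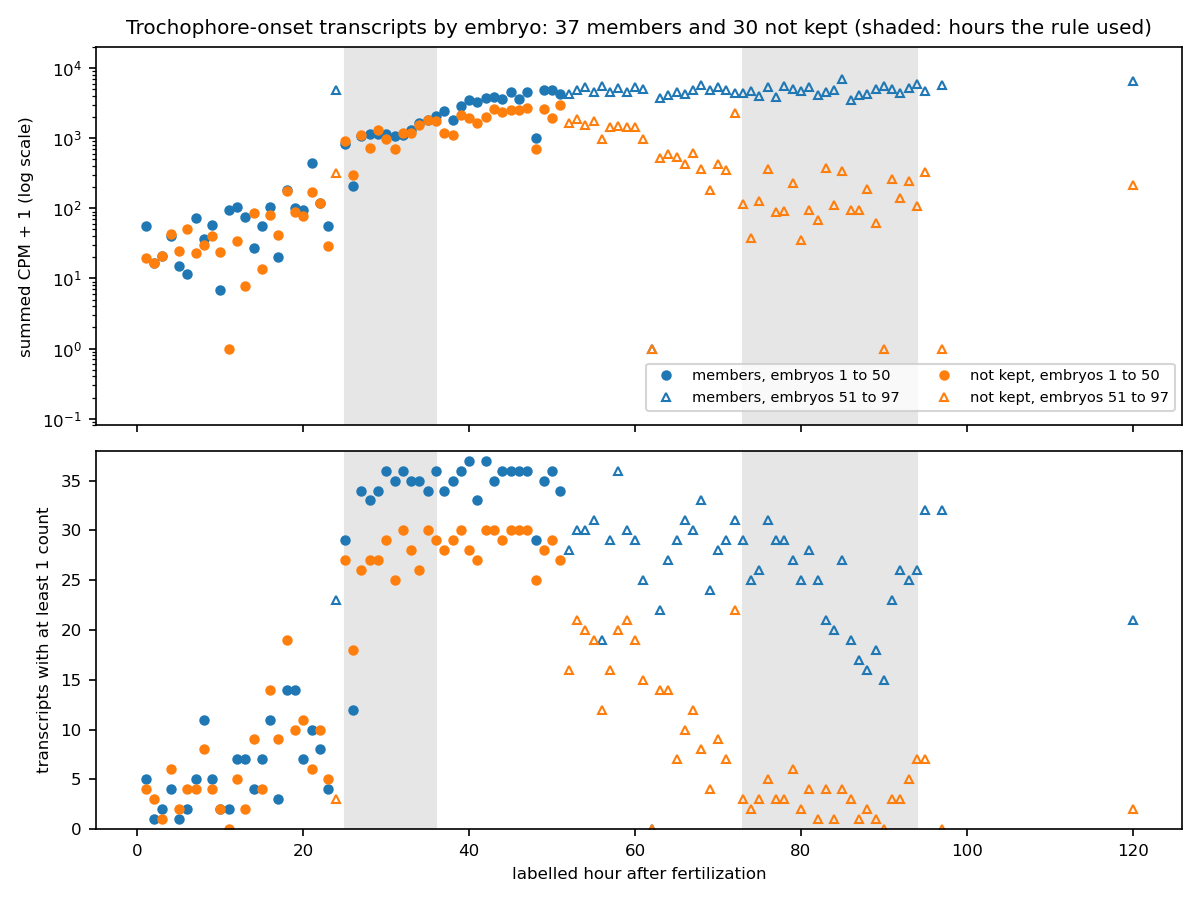
Summed level of the 37 members and the 30 transcripts not kept in each embryo (CPM plus 1, log axis, above) and number of transcripts with at least 1 count (below) against labelled hour; circles are embryos 1 to 50, triangles embryos 51 to 97, and shading marks the hours 25-36 h and 73-94 h that chose the members. The members' window means are 4547 to 5010 CPM from 52-94 h with the 62 h library aside, and the other set is lower there; the libraries labelled 24, 26, 48 and 62 h stand off the course.

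Once present, the members summed to a higher level in each next window of the second day. A few members weighed heavily on this sum. At 43-51 h the pooled level of PT_v1_tr_10138 was 752 CPM, where the median of the members was 48.8 CPM. Not all members rose, and 5 of the 37 had their highest window at 25-30 h. The summed level was 926 ± 375 CPM (SD, n = 6) at 25-30 h and 1503 ± 418 CPM (SD, n = 6) at 31-36 h. It was then 2930 ± 699 CPM (SD, n = 6) at 37-42 h and 3935 ± 1199 CPM (SD, n = 9) at 43-51 h. Without the 48 h library, at 1016 CPM the lowest of its window, the last value was 4299 ± 524 CPM (SD, n = 8). From 52 h the window means differed by less than the spread within the window of 85-94 h. The sum was 4912 ± 519 CPM (SD, n = 7) at 52-58 h, 4918 ± 508 CPM (SD, n = 7) at 66-72 h, 4733 ± 541 CPM (SD, n = 12) at 73-84 h and 5010 ± 983 CPM (SD, n = 10) at 85-94 h. At 59-65 h it was 4547 ± 594 CPM (SD, n = 6) once the 62 h library was left out. The 3 oldest embryos, at 95, 97 and 120 h, had sums of 4661, 5830 and 6445 CPM.

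A level per spike-in count, which does not depend on the embryo's other transcripts, gave the same order up to 58 h and another after it. Per 1000 spike-in counts the members had a mean of 6.15 counts at 25-30 h, 12.1 at 31-36 h and 24.9 at 37-42 h. It was 34.2 at 43-51 h and 48.4 at 52-58 h. At 52-58 h the SD was 16.5 (n = 7) and the median 43.6, with the 58 h library highest at 84.2. Later means were 36.2 at 59-65 h without the 62 h library, 37.2 at 66-72 h, 27.4 at 73-84 h and 25.7 at 85-94 h. The 3 oldest embryos had a mean of 53.7 and ranged from 32.5 to 81.5. The like levels in CPM from 52 to 94 h were therefore a like share of transcripts and not a like amount per spike-in.

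The sum hides a spread among members that the selection did not fix. At 73-94 h, 16 of the 37 were at 2 or more times their 25-36 h level, 10 between 1 and 2 times and 11 between 0.5 and 1 times, with a median ratio of 1.73 and a highest of 29.3. These ratios were part of the choice and are a description. In the hours between, which the rule did not use, 35 of 37 members were at or above 0.5 times their 25-36 h level at 37-42 h, 35 at 43-51 h, 35 at 52-58 h, 32 at 59-65 h and 35 at 66-72 h. Of the 30 transcripts not kept, 25, 25, 18, 10 and 11 were in the same windows, so most of both sets were up to 51 h. In all 5 windows at once, 29 of 37 members were, against 8 of the 30 transcripts not kept. The median level of the members was 45.0 CPM at 37-42 h, 48.8 CPM at 43-51 h, 58.0 CPM at 52-58 h and 68.8 CPM at 66-72 h. The median of the transcripts not kept was 42.9, 49.1, 30.5 and 11.9 CPM in the same windows, so these medians were close up to 51 h and apart from 52 h, where the number group also changed. Other summaries differed before 52 h. The summed level at 43-51 h was 3935 CPM for members and 2321 CPM for the transcripts not kept, and the median ratio to onset was 1.66 against 1.06. At 37-42 h, 14 of 37 members were at 2 or more times their onset level, against 6 of 30. No test was made of this difference, because both sets were split by a later level of the same transcripts.

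**Figure D2:**
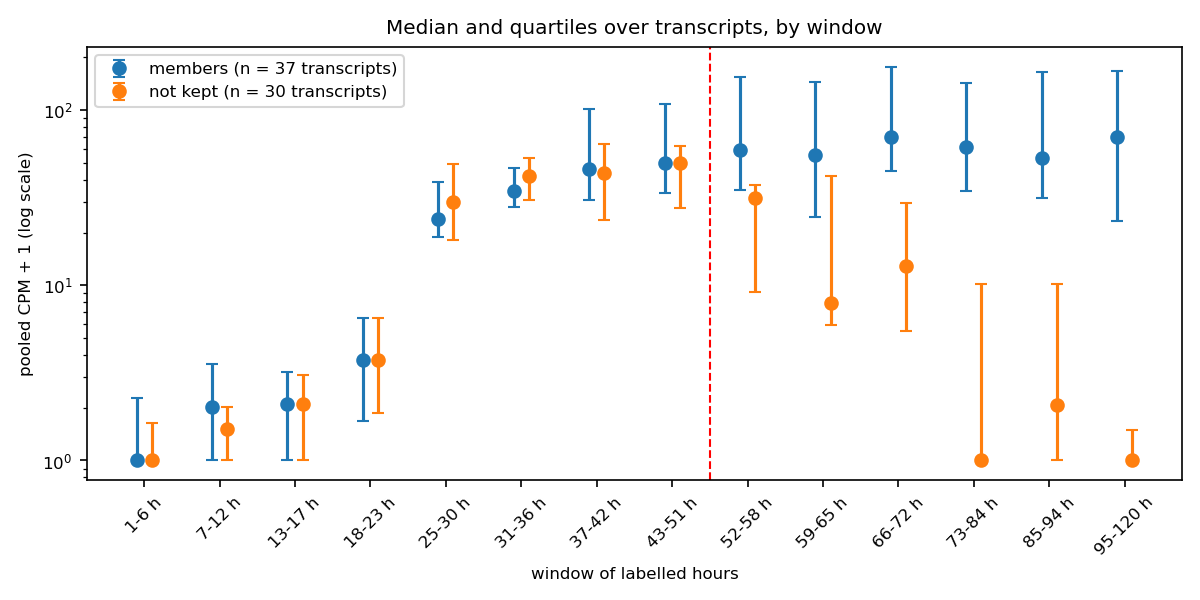
Median pooled level with quartiles (CPM plus 1, log axis) of the 37 members and of the 30 transcripts not kept in each window of labelled hours, without the single embryo of 24 h; the red line marks the change of number group between 43-51 h and 52-58 h. In the windows from 25-30 h to 43-51 h the medians of both sets lie close together (48.8 and 49.1 CPM in the last of these), and from 52-58 h the members' median is higher.

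Members reached their highest window at very different ages. Among windows of at least 5 embryos, 5 members were highest at 25-30 h, 1 at 31-36 h, 5 at 37-42 h, 5 at 43-51 h, 2 at 52-58 h, 3 at 59-65 h, 3 at 66-72 h, 2 at 73-84 h and 11 at 85-94 h. Windows before and after 52 h are of different number groups, and some places rest on 1 embryo or a near tie. PT_v1_tr_04790, with 80.7 CPM pooled at 85-94 h, had 657 CPM at 87 h. PT_v1_tr_01915 had 50.7 CPM pooled at 85-94 h and 50.3 CPM at 52-58 h. Within the onset block, 24 of the 37 were higher at 31-36 h than at 25-30 h and 13 were lower, with a median ratio of 1.32. From these courses the members are described below in 4 kinds, which were drawn up after the values were seen.

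**Figure D3:**
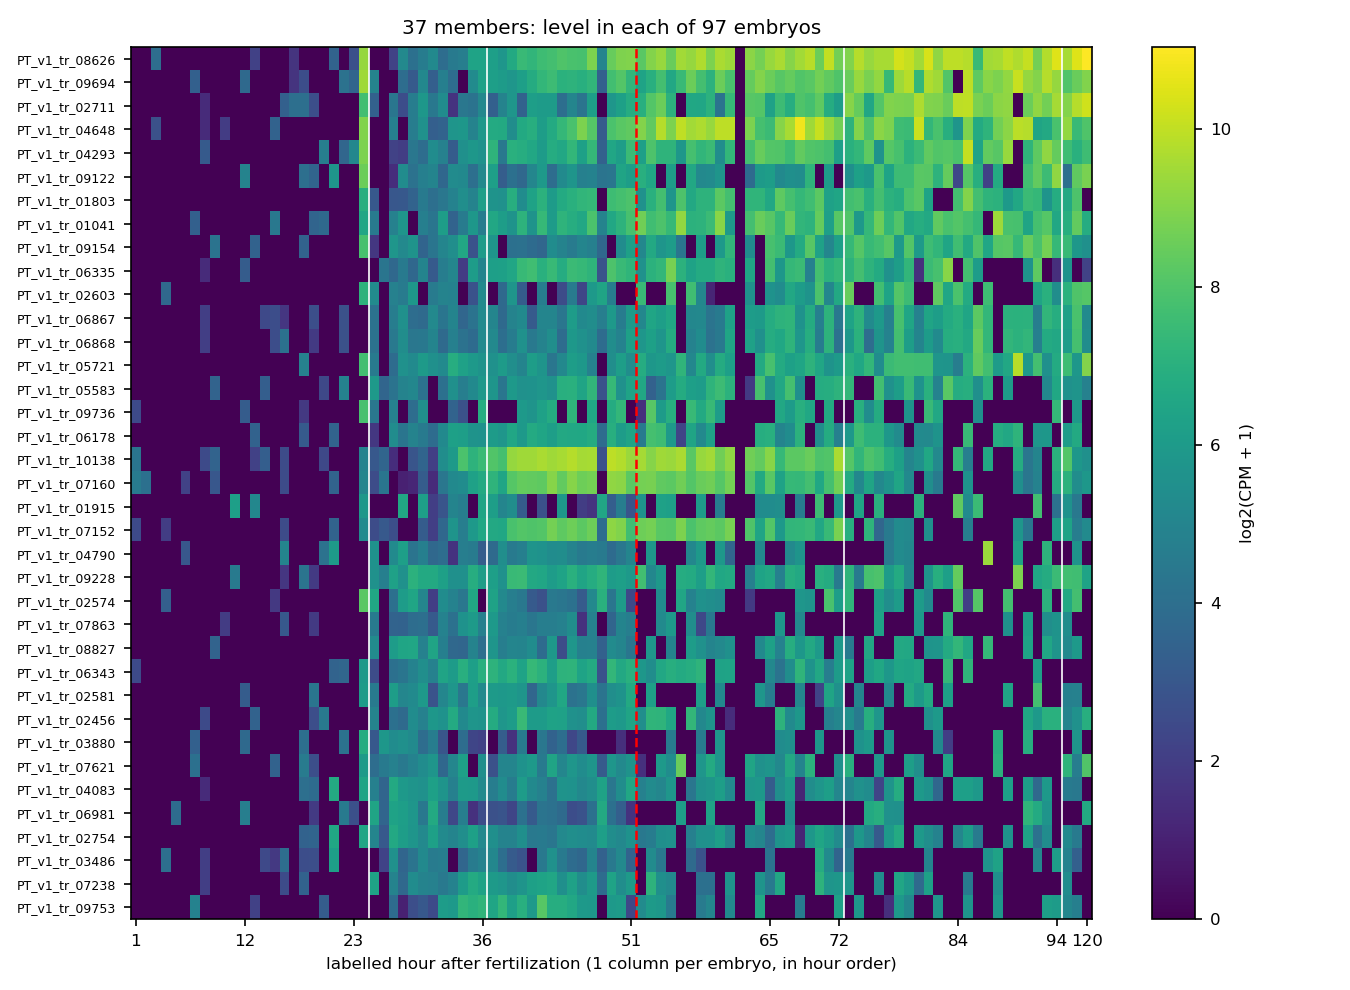
Level of each of the 37 members (rows, ordered by their ratio of 73-94 h over 25-36 h) in each embryo (columns, in order of labelled hour), as log2(CPM + 1); white lines follow 24, 36, 72 and 94 h and the red dashed line marks the change of number group after 51 h. Rows at the high end of the ratio stay filled to the last hours, while those at the low end turn patchy from 52 h, with many embryos at 0.

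The first kind stood far above its onset level at 73-94 h. PT_v1_tr_08626 had the highest ratio, 29.3. Its lowest, median and highest levels were 0, 23.2 and 83.7 CPM in the 12 embryos of 25-36 h, and 173, 854 and 1439 CPM in the 22 embryos of 73-94 h. In the hours not used for the choice it stood at 55.2, 220.3 and 492 CPM in the 14 embryos of 37-51 h without 48 h, and at 294, 643 and 1040 CPM in the 19 embryos of 52-72 h without 62 and 72 h. Every embryo of the 52-72 h group was above every embryo of 25-36 h, and the groups 37-51 h and 52-72 h overlapped. At 95, 97 and 120 h the levels were 761, 1439 and 2097 CPM, the last above all earlier embryos.

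PT_v1_tr_09694, with a ratio of 25.55, had a like course. Its lowest, median and highest levels were 0, 14.3 and 78.6 CPM at 25-36 h, 55.0, 136 and 273 CPM at 37-51 h without 48 h, 83.7, 287 and 506.5 CPM at 52-72 h without 62 and 72 h, and 0, 601 and 1097 CPM at 73-94 h. PT_v1_tr_02711, with a ratio of 21.5, was later. It stood at 0, 19.5 and 56.0 CPM at 25-36 h, at 9.33, 54.8 and 114 CPM at 37-51 h without 48 h, at 0, 134 and 373 CPM at 52-72 h, and at 0, 473 and 993 CPM at 73-94 h. Its embryos of 25-36 h and of 37-51 h overlapped widely, whereas for PT_v1_tr_09694 only the embryo of 36 h, at 78.6 CPM, reached into the later group. PT_v1_tr_04648, PT_v1_tr_04293, PT_v1_tr_01803, PT_v1_tr_01041 and PT_v1_tr_09154 were also of this kind, but not all were highest late. PT_v1_tr_04648 had a pooled 25.3 CPM at 25-36 h, its highest window at 66-72 h with 871 CPM, and 353 CPM at 73-94 h. PT_v1_tr_01041 was highest at 59-65 h, with 290.5 CPM against 30.55 CPM at 25-36 h and 198 CPM at 73-94 h. PT_v1_tr_01803 was highest at 66-72 h, with 187 CPM against 21.25 and 163 CPM. Highest at 85-94 h were PT_v1_tr_04293, with 401 CPM, and PT_v1_tr_09154, with 236 CPM. PT_v1_tr_09154 differed in timing, with a median of 24.9 CPM at 37-51 h, below its onset median of 33.4 CPM, and 60.3 CPM at 52-72 h.

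The second kind stood high between 37 and 72 h and low before and after. Its 3 leading members also had the highest ratios of 37-51 h over 25-36 h, at 16.7 for PT_v1_tr_07160, 15.85 for PT_v1_tr_07152 and 14.5 for PT_v1_tr_10138. PT_v1_tr_10138 was at 7.3 CPM at 25 h and at 3.09 CPM at 31 h, then at 41.8, 63.6, 236, 140.1 and 184.5 CPM at 32, 33, 34, 35 and 36 h. Its 14 embryos of 37-51 h without 48 h ranged from 219 to 977 CPM with a median of 724 CPM, and apart from the embryos of 37 and 38 h, at 263 and 219 CPM, the lowest was 624.9 CPM at 39 h. At 52-72 h without 62 and 72 h it had 167, 401 and 798 CPM, and at 73-94 h it had 0, 60.3 and 276 CPM with 5 of 22 embryos at 0. PT_v1_tr_07160 and PT_v1_tr_07152 had the same shape. Their median levels were 13.5 and 7.9 CPM at 25-36 h, 338 and 287 CPM at 37-51 h, 279 and 269.5 CPM at 52-72 h, and 31.0 and 5.72 CPM at 73-94 h. Neither had an embryo of 37-51 h, 48 h aside, below 89.2 CPM.

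PT_v1_tr_09753 shared the late start, at most 13.9 CPM from 25-31 h and 66.7, 61.6, 151, 128 and 150.3 CPM from 32-36 h, but not the length of the plateau. It reached 283 CPM at 42 h, was at 4.21 CPM at 51 h, and had no count in 10 of the 19 embryos of 52-72 h and 13 of the 22 of 73-94 h. It was the member just inside the third limit, with a pooled 43.0 CPM at 25-36 h and 23.1 CPM at 73-94 h (ratio 0.536); just outside lay PT_v1_tr_06091, with 28.5 and 13.9 CPM (ratio 0.488).

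The third kind had similar medians in all spans. PT_v1_tr_09228, the member with the highest pooled level at 25-36 h (79.3 CPM), had lowest, median and highest levels of 26.1, 73.6 and 134 CPM in that block, 46.7, 85.6 and 185 CPM at 37-51 h without 48 h, 0, 97.6 and 205 CPM at 52-72 h and 0, 69.0 and 464 CPM at 73-94 h. All 4 spans overlapped, and the range was widest at 73-94 h. In that span PT_v1_tr_09228 had no count in 7 of the 22 embryos, those of 80, 85-89 and 91 h, so its course was not even there. PT_v1_tr_04083 and PT_v1_tr_02754 were flatter, with medians of 50.8 and 40.3 CPM at 25-36 h, 38.4 and 36.7 CPM at 37-51 h, 42.9 and 43.6 CPM at 52-72 h and 43.7 and 30.1 CPM at 73-94 h. PT_v1_tr_05721 and PT_v1_tr_06343, also among the 10 highest at onset, were not of this kind. PT_v1_tr_05721 had similar levels up to 51 h, with medians of 45.8 and 45.0 CPM, and was then higher, at 89.1 CPM at 52-72 h and 132 CPM at 73-94 h, where all 22 embryos had a count. PT_v1_tr_06343 went from a median of 35.8 CPM at 25-36 h to 130 CPM at 37-51 h, 55.8 CPM at 52-72 h and 0 CPM at 73-94 h, where 10 of 22 embryos had a count and its pooled level was 47.8 CPM.

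The last kind was lower at 31-36 h than at 25-30 h, a trait that did not set it apart. In all, 13 members were lower. PT_v1_tr_09228, PT_v1_tr_04083 and PT_v1_tr_02754, of the kind with similar medians, had ratios of 0.981, 0.955 and 0.907 between these windows. PT_v1_tr_03486, placed here, had 0.917. PT_v1_tr_04790 and PT_v1_tr_01915, not placed here, had 0.353 and 0.597. PT_v1_tr_06981 had 85.2, 11.2, 81.4, 71.0, 54.6 and 20.3 CPM in the 6 embryos of 25-30 h and 102.0 CPM at 31 h, after which every embryo up to 51 h was at 25.6 CPM or less except the 48 h library at 105 CPM. It had no count in 15 of 19 embryos of 52-72 h and in 15 of 22 of 73-94 h, and its ratio of 52-58 h over 25-36 h, 0.0783, was the lowest of the members. PT_v1_tr_03880 was next, at 0.478, and PT_v1_tr_03486 followed at 0.5225. PT_v1_tr_03880 had 55.9 CPM at 26 h, a median of 14.3 CPM at 25-36 h, and then medians of 3.00 CPM at 37-51 h and 0 CPM at 52-72 h. PT_v1_tr_03486 had medians of 20.7, 17.9 and 0 CPM in the same 3 spans, and its highest window was 85-94 h, with 27.2 CPM pooled against 21.8 CPM at 25-30 h. PT_v1_tr_08827 and PT_v1_tr_02574 had ratios of 0.536 and 0.558 between the onset windows. PT_v1_tr_08827 had medians of 31.0 CPM at 37-51 h and 51.2 CPM at 73-94 h. PT_v1_tr_02574 had medians of 19.7 and 1.59 CPM there, and its pooled level of 51.2 CPM at 73-94 h came from 11 of 22 embryos, with the highest at 279.6 CPM. The highest window of PT_v1_tr_02574 was 66-72 h, with 60.5 CPM pooled against 54.5 CPM at 25-30 h.

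The remaining members filled the range between these kinds. PT_v1_tr_06335 resembled the second kind, with medians of 20.5 CPM at 25-36 h, 156 CPM at 37-51 h, 133 CPM at 52-72 h and 67.8 CPM at 73-94 h. PT_v1_tr_06178 had medians of 33.2, 90.0, 42.4 and 52.4 CPM in the same spans. PT_v1_tr_09122 shared the trait of the first kind. Its ratio of 73-94 h over 25-36 h was 8.36, against 7.65 for PT_v1_tr_01803, which was placed there. The medians of PT_v1_tr_09122 were 21.6, 30.7, 44.7 and 163 CPM in the same spans. PT_v1_tr_02603, PT_v1_tr_05583, PT_v1_tr_06867 and PT_v1_tr_06868 were also above their onset level, with pooled values of 83.1 to 112 CPM at 73-94 h. Another 7, namely PT_v1_tr_07238, PT_v1_tr_02456, PT_v1_tr_02581, PT_v1_tr_01915, PT_v1_tr_07621, PT_v1_tr_07863 and PT_v1_tr_09736, had pooled levels of 22.4 to 48.2 CPM at 73-94 h that came from 6 to 10 of the 22 embryos.

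**Figure D4:**
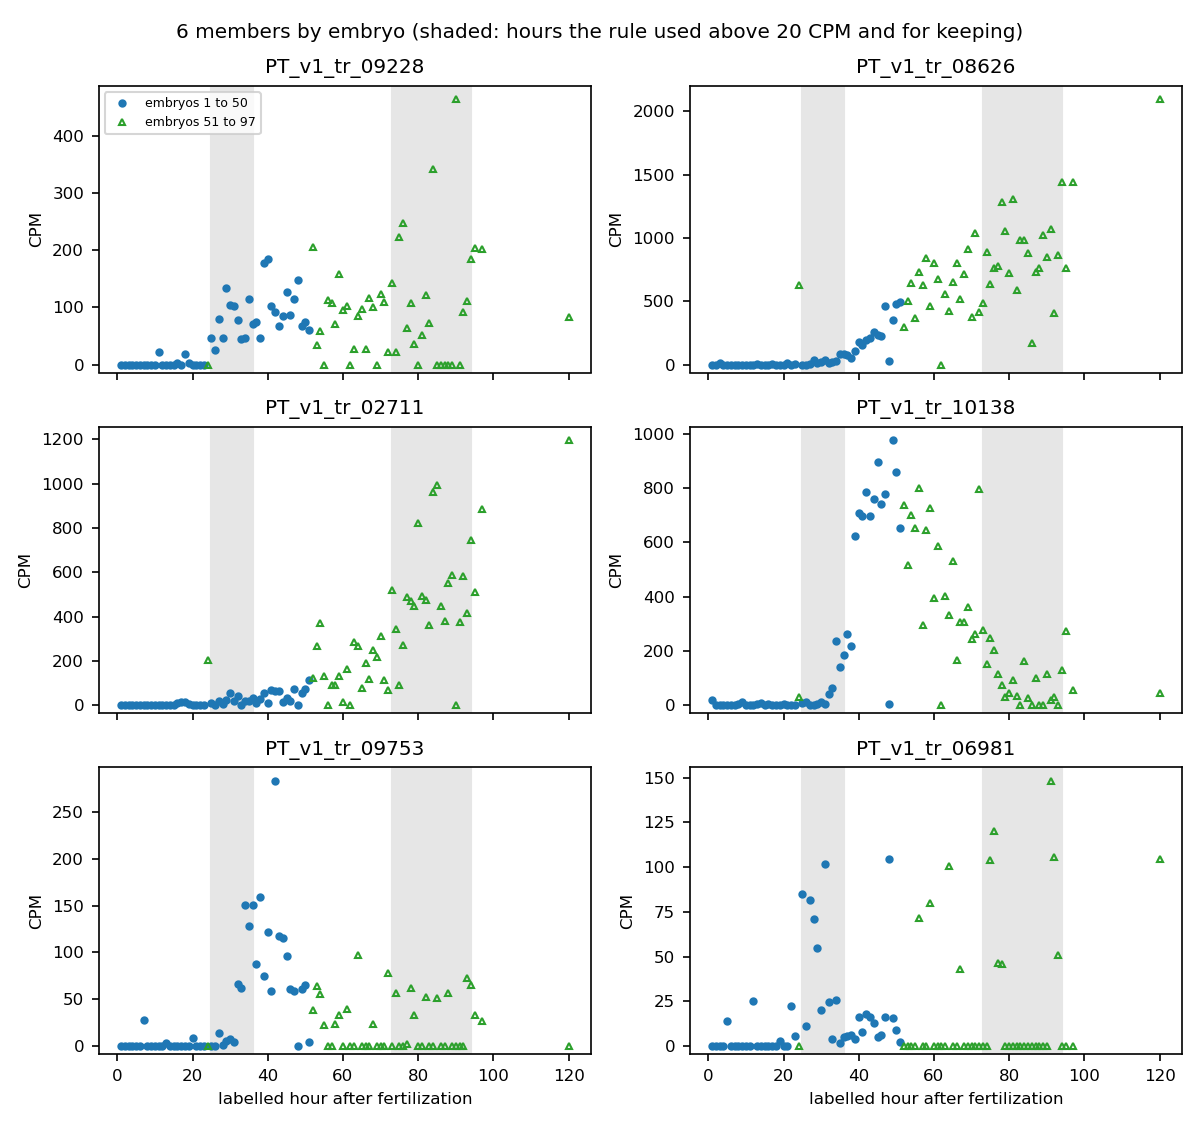
Level in every embryo (CPM) against labelled hour for PT_v1_tr_09228, PT_v1_tr_08626, PT_v1_tr_02711, PT_v1_tr_10138, PT_v1_tr_09753 and PT_v1_tr_06981; circles are embryos 1 to 50 and triangles embryos 51 to 97. PT_v1_tr_08626 and PT_v1_tr_02711 are highest in the oldest embryo, PT_v1_tr_10138 peaks at 977 CPM at 49 h, PT_v1_tr_09753 at 283 CPM at 42 h, and PT_v1_tr_06981 is mostly at 0 from 52 h.

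For some members a kept pooled level did not mean presence in most late embryos. Of the 37, 4 had a count in all 22 embryos of 73-94 h (PT_v1_tr_08626, PT_v1_tr_04648, PT_v1_tr_05721 and PT_v1_tr_09154), and 13 had a count in fewer than 11, down to 6. PT_v1_tr_04790 was the extreme case. It was detected in 6 of the 22, with 657 CPM in the embryo of 87 h, and its pooled 35.4 CPM became 14.1 CPM without that embryo. With each member's highest embryo left out, 35 of 37 still met the third criterion; PT_v1_tr_09753 and PT_v1_tr_07238 did not.

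Empty values of members were more frequent in the second number group. Among values where the window's pooled level predicted at least 10 counts, 8.72% were 0 at 25-30 h (13 of 149), 3.98% at 31-36 h (8 of 201), 2.03% at 37-42 h (4 of 197) and 4.72% at 43-51 h (15 of 318), against 15.0% at 52-58 h (35 of 233), 15.5% at 66-72 h (37 of 239), 22.7% at 73-84 h (88 of 387), 30.0% at 85-94 h (79 of 263) and 13.2% at 95-120 h (12 of 91). All transcripts changed in the same direction. With no limit on expected counts, the percentage of embryo values at 0 was taken over the 10906 transcripts with at least 1 count. It was 15.2% at 43-51 h, 51.0% at 52-58 h and 65.9% at 85-94 h, against 6.01%, 21.6% and 42.7% for members. The coefficient of variation over embryos had a median of 49.2% for the members at 37-51 h without 48 h, 73.65% at 52-72 h without 62 and 72 h, and 111% at 73-94 h. It ran from 22.6% for PT_v1_tr_06178 to 129% for PT_v1_tr_02603 in the first of these spans. Other transcripts of like level had similar values. At mean levels of 20 to 200 CPM the median was 48.05% for 28 members against 50.3% for 4170 transcripts, then 80.0% for 25 against 92.85% for 3731, and 119.9% for 28 against 122.0% for 3964. Both measures differ across the hour at which the number group changes, and the part of each was not tested.

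Changes between windows that the rule did not use were tested with edgeR's quasi-likelihood test over all transcripts, with Benjamini-Hochberg adjustment and a threshold of 0.05. Between 37-42 h (n = 6) and 43-51 h (n = 9), 0 of 36 members tested were called in either direction, where the background was 0% of 6914 transcripts. At an unadjusted p under 0.05 there were 3 members and 679 transcripts, and DESeq2 called 133 transcripts higher and 20 lower but no member. The log2 differences were positive for 27 of 36 members, with a median of 0.44 against 0.02 over all transcripts, which describes the list and is no test of it. PT_v1_tr_08626 had 126.5 ± 56.8 CPM (SD, n = 6) at 37-42 h and 305 ± 154 CPM (SD, n = 9) at 43-51 h, a log2 difference of 1.39 ± 0.45 (SE) with edgeR's adjusted p = 0.274. For PT_v1_tr_04648, with 90.8 ± 29.1 CPM (SD, n = 6) and 234 ± 132 CPM (SD, n = 9), the log2 difference was 1.47 ± 0.51 (SE) with edgeR's adjusted p = 0.303.

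This comparison turned on a single library, the one labelled 48 h. Without it, edgeR called 3 of 35 members higher, where the background was 2.34% of 6765 transcripts, and 0 lower, where it was 0.71%. They were PT_v1_tr_04648 with a log2 difference of 1.63 ± 0.31 (SE; edgeR adjusted p = 0.00903), PT_v1_tr_08626 with 1.53 ± 0.32 (SE; edgeR adjusted p = 0.0146) and PT_v1_tr_05583 with 1.23 ± 0.33 (SE; edgeR adjusted p = 0.0491). In the 48 h library these 3 stood at 7.89, 31.6 and 5.92 CPM, each below every other embryo of the 43-51 h window. PT_v1_tr_10138 stood at 5.92 CPM there and PT_v1_tr_07160 at 0, while PT_v1_tr_06981 and PT_v1_tr_02574 were higher than in any neighbour, at 105 and 126 CPM. The transcripts not kept had 1 call in the same fit.

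With the hour as a linear term over 37-51 h, edgeR called 1 of 36 members higher and none lower with all libraries, where the background was 0.911% higher and 0.101% lower; it was PT_v1_tr_08626, with a log2 slope of 0.19 ± 0.04 per hour (SE, edgeR adjusted p = 0.0383). Without the 48 h library, 7 of 35 members were called higher, where the background was 4.64%, and 0 lower, where it was 2.48%. The log2 slopes per hour were 0.21 for PT_v1_tr_08626, 0.18 for PT_v1_tr_04648, 0.165 for PT_v1_tr_01803, 0.14 for PT_v1_tr_09694, 0.13 for PT_v1_tr_07152, 0.12 for PT_v1_tr_07160 and 0.10 for PT_v1_tr_10138. Their adjusted p-values in edgeR's test ran from 8.31e-06 for PT_v1_tr_08626 to 0.0394 for PT_v1_tr_10138. PT_v1_tr_08626 had 74.6 CPM at 37 h and 193 CPM at 42 h, and 212 CPM at 43 h and 492 CPM at 51 h. PT_v1_tr_01803 went from 50.4 CPM at 37 h to 246 CPM at 51 h. The 7 include the whole set of PT_v1_tr_10138, PT_v1_tr_07160 and PT_v1_tr_07152, which were lower at 73-94 h, and 4 members of the first kind. This fit without 48 h was added after the data were seen.

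**Figure D5:**
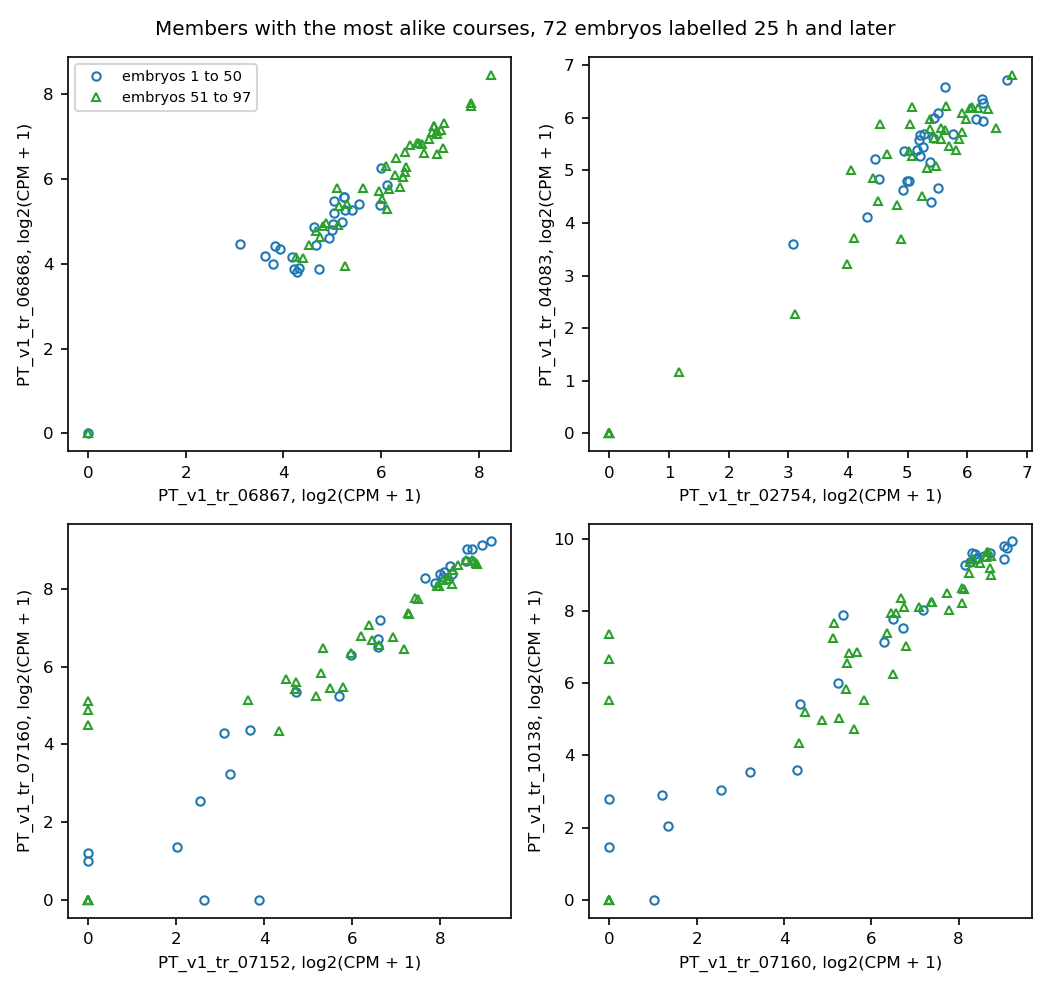
Levels of 4 pairs of members against each other, log2(CPM + 1), 1 point per embryo for the 72 embryos from 25 h on without the 62 h library; circles are embryos 1 to 50 and triangles embryos 51 to 97. PT_v1_tr_06867 with PT_v1_tr_06868 and PT_v1_tr_02754 with PT_v1_tr_04083 follow the diagonal and share their zeros, and the other pairs scatter more (r of 0.925 and 0.895).

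Within the second number group, neighbouring windows did not yield calls among members. Between 52-58 h and 59-65 h (n = 7 each), edgeR called 0 of 28 members, with 0% of 3826 transcripts called; at an unadjusted p under 0.05 there were 1 member and 63 transcripts, and DESeq2 called 3 transcripts higher, 6 lower and no member. Between 59-65 h and 66-72 h (n = 7 each), edgeR called 0 of 28 members, with 0% of 3898 transcripts called; at an unadjusted p under 0.05 there were 1 member and 28 transcripts, and DESeq2 called 2 transcripts higher, 1 lower and no member. The median log2 difference was -0.19 for members against -0.16 for all transcripts in the first and 0.34 against 0.19 in the second. Without the 62 h library, whose members had no count, these medians were -0.08 against -0.02 and 0.17 against 0.03. In those fits edgeR called 0 of 31 members in each comparison, with 1 of 4439 and 0 of 4522 transcripts called. DESeq2 without that library called 11 transcripts higher and 21 lower in the first comparison. In the second it called 2 higher and 1 lower, with no member in either. With all libraries, the 28 members that passed the filter on low counts were not the same in both comparisons. Neither of their medians covers the whole set.

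Over 52-72 h as a linear term of the hour (21 embryos), edgeR called 0 of 31 members, where the background was 0% of 4018 transcripts; 0 members and 85 transcripts had an unadjusted p under 0.05, and DESeq2 called 35 transcripts higher, 10 lower and no member. Without the libraries labelled 62 and 72 h, 2 of 31 members were called lower, where the background was 1.02% of 4234 transcripts, and 0 higher, where it was 0.567%. They were PT_v1_tr_10138, with a log2 slope of -0.09 per hour (edgeR adjusted p = 0.0137), and PT_v1_tr_07152, with -0.10 per hour (edgeR adjusted p = 0.0425). In the 72 h library PT_v1_tr_10138 stood at 796 CPM and PT_v1_tr_07152 at 448 CPM, against 263 and 171 CPM at 71 h. That library also held 22 of the 30 transcripts not kept, with a sum of 2301 CPM, against a median of 427 CPM in its window. Both of these fits were added after the data were seen.

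The 3 embryos of 95, 97 and 120 h, also outside the rule, were set against the 21 of 52-72 h. In edgeR's test 0 of 37 members were called, where the background was 0.132% higher and 0.167% lower of 8362 transcripts. At an unadjusted p under 0.05 in that test there were 7 members and 861 transcripts. DESeq2 called 2 of 32 members higher, where its background was 0.627% of 4463 transcripts, and 5 lower, where it was 3.11%. Higher in DESeq2 were PT_v1_tr_02711 (log2 difference 2.55, DESeq2 adjusted p = 0.00924) and PT_v1_tr_08626 (1.37, DESeq2 adjusted p = 0.0155); for PT_v1_tr_02711 edgeR gave 2.17 ± 0.61 (SE) with an adjusted p of 0.141. Its 3 old embryos stood at 513, 887 and 1198 CPM, all above the highest of the 19 embryos of 52-72 h without 62 and 72 h, 373 CPM.

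Lower in DESeq2 were PT_v1_tr_06343 (adjusted p = 0.000488), PT_v1_tr_07152 (log2 difference -2.36, adjusted p = 0.000938), PT_v1_tr_10138 (-1.87, adjusted p = 0.0106), PT_v1_tr_07160 (-1.75, adjusted p = 0.0157) and PT_v1_tr_06335 (-2.88, adjusted p = 0.0423). PT_v1_tr_06343 had no count in the 3 embryos, which together hold 1523522 transcript counts, so that 3 counts would be 1.97 CPM; this covers counting error only. PT_v1_tr_10138 had 274, 56.1 and 45.3 CPM, PT_v1_tr_07160 had 134.5, 42.1 and 55.7 CPM, and PT_v1_tr_07152 had 82.35, 24.9 and 38.3 CPM at 95, 97 and 120 h. In all 3 transcripts the 97 and 120 h embryos lay below every one of the 19 embryos of 52-72 h. With 3 embryos of different age in 1 group, and edgeR making no call among members, these remain differences in which both tests gave the same sign.

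Some members moved together from embryo to embryo. Over the 72 embryos from 25 h on without 62 h, the 666 pairs of members had a median Pearson r of 0.0788 on the log2(CPM + 1) scale. These embryos differ in age and number group, so r describes shared course as well as shared variation. The highest pair was PT_v1_tr_06867 with PT_v1_tr_06868 (r = 0.972), the only members whose identifiers follow each other. They had 591 and 585 counts at 25-51 h and 2009 and 1896 counts at 52-120 h, and no embryo had a count of only 1 of them, with 1 of 27 and 2 of 45 embryos lacking both. PT_v1_tr_02754 and PT_v1_tr_04083 (r = 0.968) were as close, with 801 and 855 counts at 25-51 h, 941 and 962 counts at 52-120 h, 8 of 45 embryos lacking both and none lacking only 1. Whether such a pair is 1 gene counted under 2 identifiers, near-identical copies or separate genes cannot be read from the table, and these counts are uncertain to that extent.

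PT_v1_tr_07152 with PT_v1_tr_07160 (r = 0.925), PT_v1_tr_07160 with PT_v1_tr_10138 (r = 0.895), PT_v1_tr_07152 with PT_v1_tr_10138 (r = 0.8435) and PT_v1_tr_04648 with PT_v1_tr_08626 (r = 0.817) came next. The first 3 of these pairs join the members of the plateau at 37-72 h, and the last joins 2 of the first kind. PT_v1_tr_07152 and PT_v1_tr_07160 were both at 0 in 8 of the 45 embryos of 52-120 h, and in 3 only the former was.

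The limits of the rule passed close to other transcripts. At the early limit PT_v1_tr_01915 lay just inside, with 2.97 CPM at 1-23 h, and PT_v1_tr_00624 just outside with 3.12 CPM, 24.9 CPM at 25-36 h and 32.5 CPM at 73-94 h. At the onset limit PT_v1_tr_09736 lay inside with 20.1 CPM and PT_v1_tr_04962 outside with 19.7 CPM. With the mean of the embryos' CPM in place of pooled levels, 35 transcripts met the rule, 30 of them among the 37. With PT_v1_tr_02502 kept in the totals, 46 did and 19 were shared.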

How the data were processed

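The authors deposited raw counts per transcript for each embryo, with 92 spike-in rows and 5 summary rows of reads without a transcript, which held 4.09% and 57.7% of all counts and were left out of totals. CASAVA 1.8, Bowtie2 2.1.0 and HTSeq 0.5.4p3 are named per the submitters' processing notes; their settings and the reference are not given in the sources used here. All columns matched a labelled embryo, and no 2 columns were identical. Levels are CPM, counts scaled to a total of 1000000 transcript counts without PT_v1_tr_02502, pooled over a window or per embryo. Tests used edgeR 4.0.16 (TMM scaling, filterByExpr, robust quasi-likelihood test, Benjamini-Hochberg adjustment over all transcripts tested; R 4.3.3), with DESeq2 1.42.0 as an alternative, and were tested on simulated data first. Hours that chose the members were not tested. Each embryo is a single collection at its hour, and shared matings are not labelled. The p-values therefore set a difference against the spread among these embryos. Within a window that spread holds age as well as embryo.

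Members and windows were chosen with earlier results of these data known. Transcripts are named by a rule: the 10 highest at 25-36 h, the members called in a test, the 3 highest or lowest in the ratios of late, 52-58 h or 37-51 h levels to onset, those at each limit, and consecutive identifiers. Other named members, the 4 kinds and the pairs were chosen after their values were seen. Other scalings, filters, a library-total covariate and left-out libraries were tried. Summaries and plots used Python 3.11.15, numpy 2.4.6, pandas 2.3.3 and matplotlib 3.10.9.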

Additional observations from a re-analysis of the deposited data

Results flagged for a closer look

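Several libraries lay apart from their windows in the members' levels, by the gap to the nearest other embryo relative to the window's range. Of 84 groups of values looked at in this way 13 stood out. The limit used marks about 1 in 20 groups of independent values from 1 normal distribution. These groups share libraries and members, and levels change with age in a window, so that rate does not apply to the 13. In the library labelled 21 h the members summed to 443.6 CPM, next to 180.0 CPM in the nearest embryo of 18-23 h; the library also lies outside the hours that chose the members. In the 26 h library they summed to 205 CPM, next to 820.1 CPM, and 12 members had a count, next to 29. In the 48 h library they summed to 1016 CPM, next to 3658 CPM, and 29 members had a count, next to 34. In the 62 h library the sum was 0 CPM, next to 3690 CPM, and 0 members had a count, next to 22; its total was 3555 counts.

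The single transcripts that stood out were mostly in the 48 h library. There PT_v1_tr_10138 was at 5.92 CPM, next to 654.3 CPM, and PT_v1_tr_07160 at 0 CPM, next to 307.2 CPM. In the same library PT_v1_tr_06981 was at 104.6 CPM, next to 16.28 CPM, and PT_v1_tr_02574 at 126.3 CPM, next to 65.65 CPM. The 31 h library held high values of PT_v1_tr_08827, 86.53 CPM next to 29.18 CPM, and of PT_v1_tr_06981, 102.0 CPM next to 25.63 CPM. The 24 h library, outside the hours that chose the members, had a members' sum of 4806 CPM, against at most 180.0 CPM from 1-23 h without 21 h.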

How the results depend on the processing

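The count of members higher at 43-51 h than at 37-42 h was 0. It was 3 without the 48 h library (158 of 6765 transcripts) and 0 with any other single embryo left out. With a linear term of the hour it was 1 (63 of 6914 transcripts). With that term and no 48 h library it was 7 (314 of 6765 transcripts). The other scalings, filters and DESeq2 gave 0 members. For 95-120 h against 52-72 h, 1 member was higher with DESeq2 size factors, total-count scaling, spike-in scaling, no filter or the library total as a covariate (PT_v1_tr_02711, with edgeR adjusted p-values from 0.0130 to 0.0415), and 2 in DESeq2; 1 was lower with no filter and 5 in DESeq2. In the edgeR fit with TMM scaling, which called 0 with all 3 oldest embryos, leaving out any 1 of them also gave 0. No embryo was left out under the settings that made calls, so their dependence on 1 old embryo was not tested. For the linear term over 52-72 h, 2 of 31 members were lower without the 62 and 72 h libraries, with 43 of 4234 transcripts. With the library total as a covariate the differences of PT_v1_tr_07152 and PT_v1_tr_10138 at 43-51 h against 37-42 h turned to -0.0204 and -0.11 on the log2 scale (edgeR adjusted p = 0.998 and 0.991). With PT_v1_tr_02502 in the totals, 19 of the 37 members met the rule. The cause of these differences was not tested.

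Members at or above 0.5 times their onset level numbered 34 to 36 at 37-42 h and at 43-51 h, 35 to 36 at 52-58 h, 29 to 33 at 59-65 h and 34 to 35 at 66-72 h over the alternatives. The median log2 difference of all transcripts moved with the scaling: at 59-65 h against 52-58 h it was -0.16 with TMM, -0.03 with total counts and -0.31 with spike-ins, at 66-72 h against 59-65 h it was 0.19, 0.09 and 0.00, and at 95-120 h against 52-72 h it was -0.23, -0.06 and 0.13. Differences in those windows are to be read against these medians. One embryo per hour, unlabelled matings, the change of embryo-number group at 52 h and many empty values after it limit what the members' late levels can show.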
